A study of Mus musculus with 9 samples.

Results

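The TGF beta and activin family genes described here are Tgfb1, Tgfb2, Tgfb3, Inhba, Inhbb, Inhbc, Inhbe, Fst, Smad7 and Bambi, 10 genes that were chosen by name and read through every array probe that carries one of those names. They were measured by 13 probes, and 9 of the 10 genes were among the 17633 features (1 probe per gene or unnamed transcript) that were tested. The study measured RNA in the livers of male C57bl/6J mice aged 16 weeks after 12 weeks on 1 of 3 diets, with 3 livers per group and 1 array per liver. The chow group ate ordinary chow, the HFD group was given a diet with 60 kcal% of fat, and the HFD+APS group that same diet with APS mixed in at 40 g per kg of diet. The labels give only the abbreviation APS, which stands for astragalus polysaccharides, a plant polysaccharide preparation. The series' design text says that the livers hybridised were picked from the 24 mice of the study by tissue staining and triglyceride content, so the spread within a group is that of selected livers and p-values measure only that spread.

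TGF beta and activin are secreted dimers that bind pairs of serine/threonine kinase receptors, which phosphorylate SMAD proteins that then enter the nucleus and regulate genes. Activins are dimers of inhibin beta subunits, of which the liver makes several. Follistatin and related proteins bind activins outside the cell, while inhibitory SMADs and decoy receptors damp the signal at the receptor. In the liver, TGF beta is known for activating stellate cells, which lay down collagen, and activin A for limiting hepatocyte growth.

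Values are log2 signals from which the 75th percentile of their own array was subtracted, so 0 is the level of the probe at that percentile and a difference of 1 is a doubling. Levels of different probes are not set against each other, except to pick the brightest probe or markers. Sums of markers add linear levels of different probes, so the brightest probes weigh most in them. The 75th percentile signal itself ran from 209.7 to 264.7 over the 9 arrays. The chow arrays lay together on slide 1, the HFD arrays and HFD+APS 1 on slide 2, and HFD+APS 2 and 3 on slide 3, so diet and slide cannot be told apart in either comparison with chow. In HFD+APS against HFD only HFD+APS 1 shared a slide with the HFD arrays, so APS and slide were largely confounded there too. On slide 2 the mean negative control signal was 64.5 to 70.9 and 50.4 to 54.1% of spots were well above background, against 44.7 to 50.2 and 61.5 to 68.4% on the other slides. The defining hepatocyte markers were bright on all 9 arrays, with a mean of 9.88 for Alb and 7.80 for Apoa1. All 4 adipocyte markers (Adipoq, Lep, Retn and Plin1) failed the filter on dim probes. HFD 3 stood apart in the summed linear level of neutrophil markers, with 49.6 (3 of 4 measured, led by S100a9 and S100a8; 1.36 to 8.73 on the other arrays). Its sum of cholangiocyte markers (5 of 5, led by Spp1 and Sox9) was 47.1, against 5.77 to 8.31 on the other arrays, and nearly all of that sum was Spp1 (log2 5.50 on HFD 3, 2.18 to 2.83 on the other arrays). Sox9 was also highest on HFD 3 (0.58, against -1.53 to -0.14 on the other arrays). Krt7 (-1.87), Krt19 (-2.65) and Epcam (-3.43) on HFD 3 lay within the range of the other arrays.

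Of the 9 tested genes, Inhba fell on the high-fat diet and no other member passed the test, which was limma's 2-sided moderated test at an adjusted p (Benjamini-Hochberg, all 17633 features) under 0.05. In HFD against chow 1 of 9 members was lower and 0 were higher, where 6.37% of all features were called lower and 4.55% higher. Between HFD+APS and HFD limma called 0 members, where 1.03% of all features were called lower and 0.476% higher. At an unadjusted p under 0.05 there were 2 of 9 members in that comparison (Inhba and Inhbe), beside 17.9% of all features. For HFD+APS against chow 1 member, again Inhba, was lower and 0 were higher, where 2.5% of features were lower and 0.958% higher. Groups did not overlap for 2 of 9 members in HFD against chow (38.9% of all features), 3 of 9 in HFD+APS against HFD (24.5%) and 1 of 9 in HFD+APS against chow (30.9%). With 9 genes these counts lie close to those of the array as a whole, and nothing particular to the family is read from them. The median log2 change of the 9 members was -0.041, 0.12 and -0.16 in the 3 comparisons, beside -0.039, 0.00059 and -0.032 over all features. The comparisons share their groups and are not independent of each other.

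**Figure D1:**
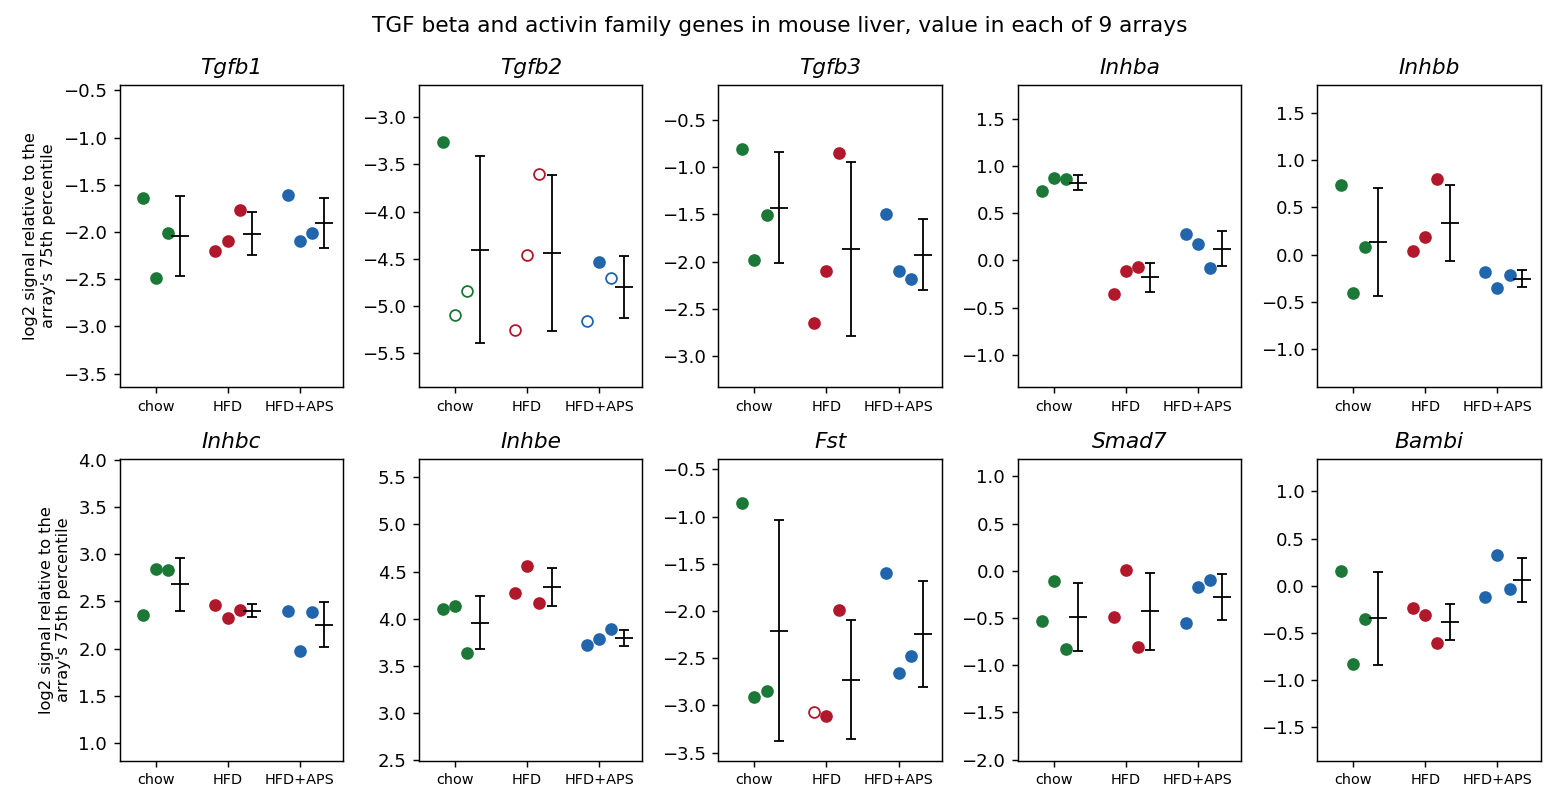
Log2 signal, with the 75th percentile of its array as 0, for each of the 10 genes in the 9 livers, with the arrays of a group in the order 1 to 3. Filled points were well above background and open points were not, and the black bar is the group mean ± SD of 3 arrays. Inhba is the gene whose 3 chow livers lie above all 6 livers on the high-fat diets.

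Inhba encodes the inhibin beta A subunit, 2 copies of which make activin A. In chow livers it read 0.73, 0.87 and 0.87 on arrays 1 to 3, in HFD livers -0.36, -0.11 and -0.07, and in HFD+APS livers 0.28, 0.18 and -0.08. Every chow liver was above every liver on either high-fat diet, and the lowest HFD+APS liver was level with the highest HFD liver. The mean was 0.82 ± 0.079 (SD, n = 3) in chow, -0.18 ± 0.16 in HFD and 0.13 ± 0.185 in HFD+APS. Inhba thus fell by 1.003 ± 0.13 (SE) on the log2 scale in HFD against chow, to 0.499 of the chow level (adjusted p = 0.00768, limma). It fell by 0.70 ± 0.13 in HFD+APS against chow, to 0.616 of the chow level (adjusted p = 0.0346, limma). Between the 2 high-fat diets the difference was 0.31 ± 0.13 with a 95% interval of 0.01 to 0.60, and it did not pass the test (adjusted p = 0.268, limma).

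The Inhba result in HFD against chow passed the test under all 21 processing alternatives run, among them leaving out each array in turn, with changes from -1.06 to -0.83 and adjusted p from 0.00262 to 0.0348. Without HFD 3 the change was -1.06 (adjusted p = 0.0203), and with slide as a random block it was -1.02 (adjusted p = 0.0189). Because the chow arrays lay alone on their slide, that block cannot separate slide from diet in this comparison. The result in HFD+APS against chow was less stable: it kept its direction in all 21 alternatives but passed the test in 10 of them. Its adjusted p rose to 0.0604 without chow 1, 0.125 without chow 2, 0.103 without chow 3, 0.0588 without HFD 2, 0.103 without HFD+APS 2 and 0.11 without HFD+APS 3. It was also lost with median scaling, without the filter on dim probes, with only the 2 groups in the fit, and with a random slide block or a replicate block (adjusted p from 0.0599 to 0.0735). On slide 2, where both high-fat groups are present, HFD+APS 1 lay above each of the 3 HFD livers, by 0.46 over their mean.

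**Figure D2:**
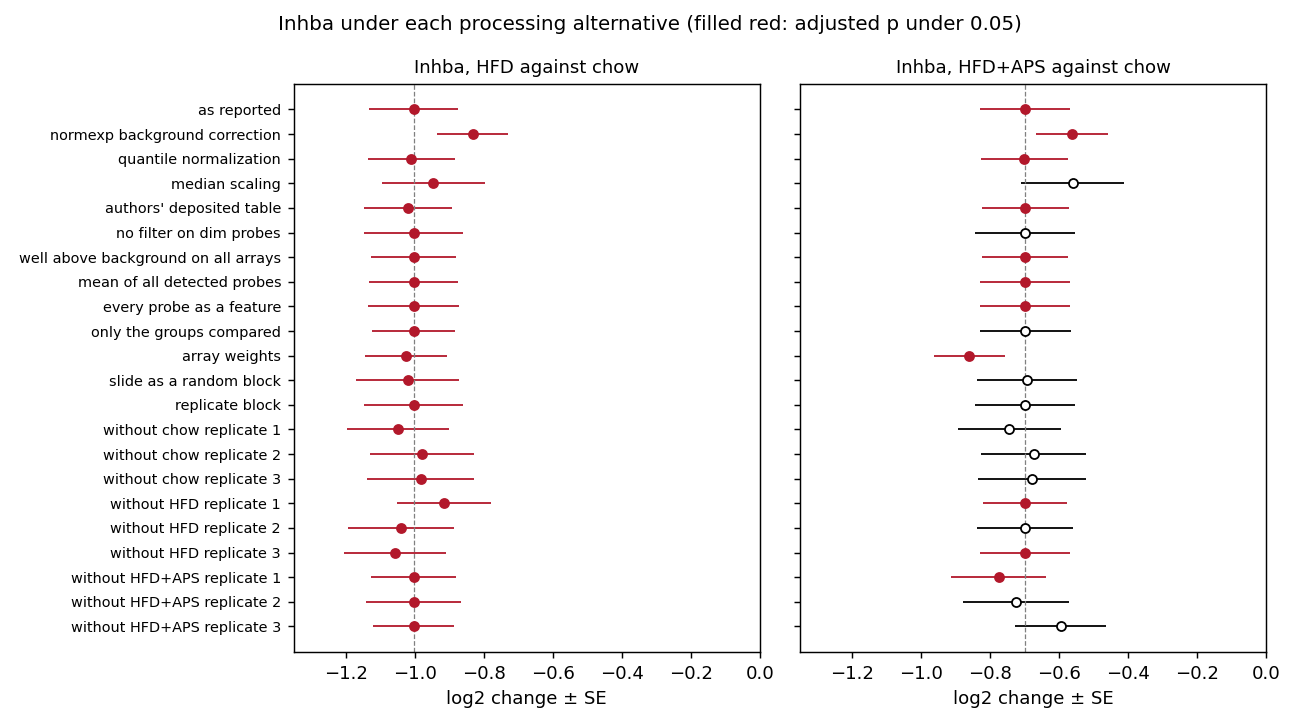
Log2 change of Inhba ± SE in HFD against chow (left) and HFD+APS against chow (right) as reported and under each of 21 alternatives, with the reported change as a dashed line. Filled red points have an adjusted p under 0.05: all 21 alternatives on the left and 10 on the right.

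Marker genes of the cell types of the liver were read in the same fit. In HFD against chow the markers called were Col1a1 (2.08) and Col3a1 (1.79), higher, of 12 stellate cell and myofibroblast markers, Clec4g (0.80) and Oit3 (0.92), higher, of 10 sinusoidal endothelial markers, Tat (-0.73), lower, of 9 hepatocyte markers, and Cd4 (-0.72), lower, of 4 T cell markers; they are named because they were called. Cps1 (1.11), a hepatocyte marker, was called higher in HFD+APS against HFD, and Fcgr2b (1.14), an endothelial marker, higher in HFD+APS against chow. None of the 12 Kupffer cell and macrophage markers was called in any comparison. The summed linear level of 9 of 10 hepatocyte markers was 2115 to 2311 in chow, 1672 to 2110 in HFD and 1846 to 2337 in HFD+APS. Kupffer cell and macrophage markers (12 of 12, led by Cd5l and Clec4f) summed to 45.4 to 74.8, 80.6 to 119.6 and 63.1 to 131.8 in the same order. Sinusoidal endothelial markers (10 of 10, led by Clec4g and Kdr) summed to 36.3 to 56.8, 66.9 to 78.3 and 71.9 to 82.3. Stellate cell and myofibroblast markers (12 of 13, led by Dcn and Col1a2) summed to 72.7 to 129.8, 124.3 to 153.6 and 116.2 to 137. Most of each of these sums was Dcn (log2 5.93 to 6.89 over the arrays), so they say little about the other stellate markers. In HFD+APS against HFD 0 of the 12 were called, with a median log2 change of -0.108. The sums carry no test. The endothelial and T cell sums did not overlap between chow and either high-fat group, nor the hepatocyte, Kupffer and cholangiocyte sums between chow and HFD. T cell markers (4 of 5, led by Cd3d and Cd3e) were dim, at 0.815 to 0.926 in chow, 0.507 to 0.663 in HFD and 0.459 to 0.767 in HFD+APS. Cd4 read -3.641, -3.503 and -3.755 on HFD 1 to 3. The lowest signal well above background on those arrays was -3.045, -3.51 and -3.462, so the Cd4 call rests on values near or below that floor. The sums of platelet markers (3 of 4, led by Pf4 and Ppbp) and of B cell markers (4 of 4, led by Cd79b and Ms4a1) overlapped between all groups. Their part in the Inhba result was not tested, and in whole liver RNA fewer cells of a type and less RNA per cell cannot be told apart.

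The Inhba values rest on 1 probe of 60 bases at chr13:16118634-16118693 on the plus strand (mm9), whose sequence is shown because the main result turns on it. Its longest run of letters shared with a probe for another gene was 14 bases. The RefSeq promoter sequence (GRCm38.p6), the 250 bases before the start at chr13:16011601-16011850, plus strand, is shown beside it as the regulatory sequence of the gene that fell.

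Inhba probe: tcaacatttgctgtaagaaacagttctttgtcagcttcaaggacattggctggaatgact
Inhba promoter: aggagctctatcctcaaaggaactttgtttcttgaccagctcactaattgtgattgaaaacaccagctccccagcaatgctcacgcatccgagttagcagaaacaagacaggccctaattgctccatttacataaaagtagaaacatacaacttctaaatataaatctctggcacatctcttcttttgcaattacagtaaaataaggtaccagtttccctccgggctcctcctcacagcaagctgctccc

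The following motifs were searched for on both strands of the 250 bases, and none of them contains another: the SMAD-binding element CAGAC (in 42.2% of all 32851 RefSeq promoters of that length), the AP-1 site TGANTCA (6.75%), the CRE TGACGTCA (1.55%), the E box CACGTG (6.02%) and the C/EBP-ATF composite site TGATGCAA (0.791%). The Inhba promoter held a match to none of them, which says only that these letters are not in this window. Promoters of 6 of the 10 genes were listed: Tgfb1, Tgfb2, Inhba, Inhbb, Inhbc and Inhbe.

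Inhbe encodes the inhibin beta E subunit, which is made mainly by hepatocytes. Its probe (chr10:126786719-126786778, minus strand, mm9) read 4.11, 4.14 and 3.64 in chow, 4.28, 4.55 and 4.17 in HFD and 3.72, 3.79 and 3.89 in HFD+APS. All 3 HFD livers were above the other 6, although the lowest HFD liver exceeded the highest chow liver by a small margin, 4.17 against 4.14. The difference was 0.37 ± 0.16 in HFD against chow, with a 95% interval of -0.0027 to 0.75 (adjusted p = 0.161, limma). For HFD+APS against HFD it was -0.53 ± 0.16, with an interval of -0.91 to -0.16 (adjusted p = 0.152, limma). Neither passed the test, and HFD+APS against chow gave -0.16 with an interval of -0.53 to 0.22. On slide 2 HFD+APS 1 was below all 3 HFD livers, by 0.61 under their mean. With array weights the HFD against chow difference became 0.61 with an adjusted p of 0.0313, the 1 of 21 alternatives that called it.

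Inhbc encodes the inhibin beta C subunit, also of hepatocytes, and its gene is the direct neighbour of Inhbe on chromosome 10, with no RefSeq gene between them. The brighter of its 2 probes (chr10:126793865-126793924, minus strand, mm9) read 2.36, 2.85 and 2.83 in chow, 2.46, 2.33 and 2.41 in HFD and 2.40, 1.97 and 2.39 in HFD+APS. Chow 2 and 3 were above all other livers, and chow 1 was among the high-fat livers. The difference was -0.28 in HFD against chow (interval -0.67 to 0.11), -0.15 in HFD+APS against HFD (-0.54 to 0.25) and -0.43 in HFD+APS against chow (-0.82 to -0.03, adjusted p = 0.17, limma). The other probe (chr10:126794356-126794415) gave -0.33, -0.043 and -0.37, the same direction in each comparison. With array weights Inhbc passed the test in HFD+APS against chow (adjusted p = 0.0384).

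The 2 neighbouring promoters are shown because the differences of Inhbe and Inhbc in HFD against chow, neither of which passed the test, had opposite signs although the genes are neighbours. Capitals mark matches to the motifs above, on either strand. The Inhbe promoter (chr10:127351849-127352098, minus strand, GRCm38.p6) held 2 SMAD-binding elements and 1 C/EBP-ATF composite site, whose nearest base lay 174 bases before the start. The Inhbc promoter (chr10:127370549-127370798, minus strand, GRCm38.p6) held 2 SMAD-binding elements and no match to the others. A match is a match of letters, and no factor's binding was measured.

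Inhbe promoter: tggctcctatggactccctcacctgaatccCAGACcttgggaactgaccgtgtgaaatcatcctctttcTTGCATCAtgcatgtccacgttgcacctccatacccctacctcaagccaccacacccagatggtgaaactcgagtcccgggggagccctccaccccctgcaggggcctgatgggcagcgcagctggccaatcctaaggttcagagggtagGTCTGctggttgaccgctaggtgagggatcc
Inhbc promoter: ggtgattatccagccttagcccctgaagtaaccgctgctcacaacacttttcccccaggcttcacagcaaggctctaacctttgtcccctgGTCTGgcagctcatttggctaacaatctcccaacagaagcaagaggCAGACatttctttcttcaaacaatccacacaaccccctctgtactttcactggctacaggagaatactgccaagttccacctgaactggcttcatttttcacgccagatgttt

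Inhbb encodes the inhibin beta B subunit, the building block of activin B. Its brighter probe (chr1:121312083-121312142, minus strand, mm9) read 0.73, -0.40 and 0.08 in chow, 0.04, 0.18 and 0.80 in HFD and -0.19, -0.36 and -0.21 in HFD+APS. All 3 HFD+APS livers were below the HFD livers, while the chow livers ranged over both. The difference in HFD+APS against HFD was -0.59 ± 0.30, with an interval of -1.27 to 0.08 (adjusted p = 0.332, limma). In HFD against chow it was 0.20 (interval -0.47 to 0.88), and in HFD+APS against chow -0.39 (-1.07 to 0.29). The dimmer Inhbb probe (chr1:121314417-121314476) was well above background on 2 chow arrays, 0 HFD arrays and 1 HFD+APS array, so no difference is read from it. It read -3.71, -4.04 and -3.71 in chow, -4.44, -4.54 and -3.94 in HFD, and -4.69, -4.41 and -4.53 in HFD+APS.

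**Figure D3:**
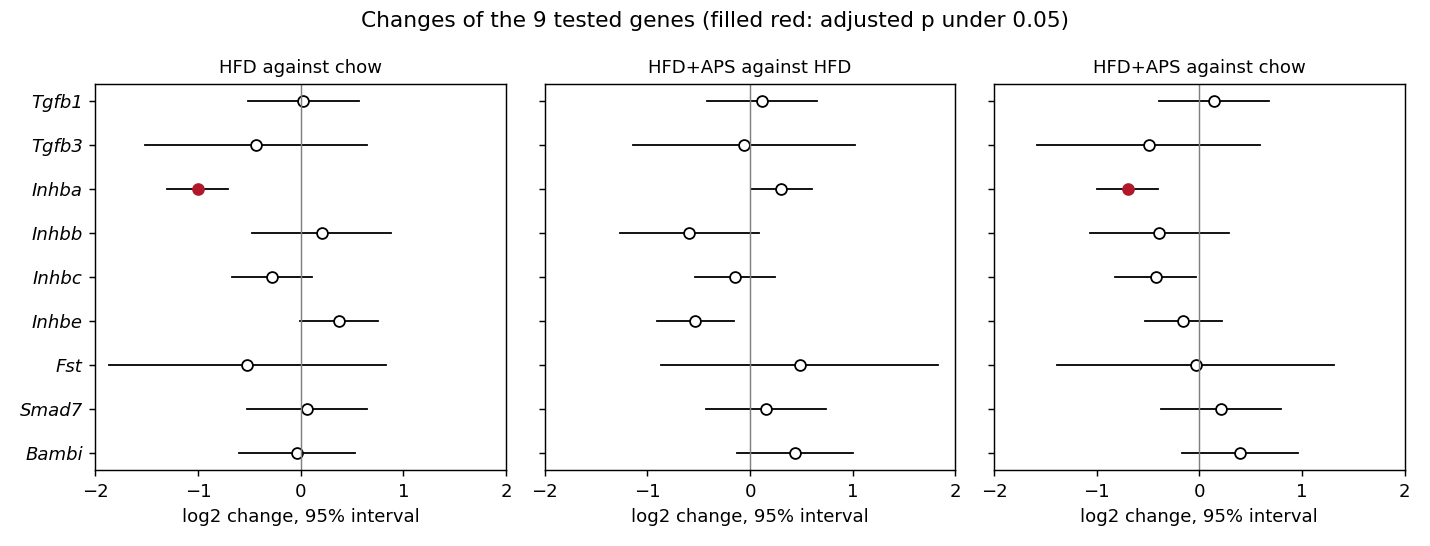
Log2 change of the 9 tested genes in the 3 comparisons, with 95% intervals from the fit. Filled red points passed the test, which are Inhba in HFD against chow (-1.003) and in HFD+APS against chow (-0.70), and the intervals of Fst and Tgfb3 are the widest.

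None of the TGF beta ligands passed the test. Tgfb1, the isoform made by many cell types of the liver, read -1.64, -2.48 and -2.02 in chow, -2.20, -2.10 and -1.77 in HFD and -1.60, -2.10 and -2.01 in HFD+APS (chr7:26489877-26489936, plus strand, mm9). The groups overlapped fully, and the widest spread was among the chow livers. The differences were 0.025 in HFD against chow (interval -0.51 to 0.56), 0.12 in HFD+APS against HFD (-0.42 to 0.66) and 0.14 in HFD+APS against chow (-0.40 to 0.68). The Tgfb1 probe was spotted 10 times per array, and the SD between those spots was 0.0628 to 0.277. Between livers the SD was 0.422 in chow, 0.227 in HFD and 0.264 in HFD+APS.

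Tgfb3 (chr12:87397804-87397863, minus strand, mm9) read -0.81, -1.98 and -1.50 in chow, -2.65, -2.11 and -0.85 in HFD and -1.49, -2.10 and -2.19 in HFD+APS. Chow 1 and HFD 3 were the highest livers, and the HFD group alone covered nearly the whole range. The difference in HFD against chow was -0.44 with an interval of -1.52 to 0.65, so a change of more than 2-fold in the lower direction lies within it. The intervals were -1.14 to 1.03 in HFD+APS against HFD and -1.58 to 0.59 in HFD+APS against chow. Tgfb2 was not tested, because its probe (chr1:188447534-188447593, minus strand, mm9) was well above background on 2 of 9 arrays, chow 1 and HFD+APS 2. It read -3.27, -5.10 and -4.84 in chow, -5.25, -4.46 and -3.60 in HFD and -5.16, -4.53 and -4.70 in HFD+APS.

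The inhibitors of the pathway were measured by Fst, Smad7 and Bambi. Fst encodes follistatin, which binds and neutralises activins, and its probe spans a splice junction, with its ends 673 bases apart at chr13:115244692-115245364 (minus strand, mm9). Fst read -0.86, -2.91 and -2.85 in chow, -3.07, -3.11 and -1.99 in HFD and -1.60, -2.65 and -2.48 in HFD+APS, and was well above background on 8 of 9 arrays, the exception being HFD 1. In each group 1 liver stood above the other 2: chow 1, HFD 3 and HFD+APS 1. The differences were -0.52 in HFD against chow (interval -1.87 to 0.83), 0.48 in HFD+APS against HFD (-0.86 to 1.83) and -0.036 in HFD+APS against chow (-1.38 to 1.31). Without chow 1, the difference in HFD against chow was 0.15.

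Smad7 encodes an inhibitory SMAD that is itself induced by TGF beta and blocks the type I receptor. It read -0.53, -0.11 and -0.83 in chow, -0.49, 0.01 and -0.81 in HFD and -0.56, -0.17 and -0.10 in HFD+APS. The groups overlapped in every comparison, with differences of 0.057 (interval -0.53 to 0.64), 0.16 (-0.43 to 0.74) and 0.21 (-0.37 to 0.80) in the comparisons in the same order as above. Bambi encodes a decoy receptor that lacks the kinase domain. It read 0.15, -0.83 and -0.35 in chow, -0.24, -0.31 and -0.60 in HFD and -0.11, 0.32 and -0.04 in HFD+APS. All 3 HFD+APS livers were above the HFD livers, with a difference of 0.44 ± 0.25 (interval -0.12 to 1.005, adjusted p = 0.385, limma), and the chow livers ranged over both groups. Bambi differed by -0.041 in HFD against chow (interval -0.61 to 0.52) and by 0.40 in HFD+APS against chow (-0.16 to 0.96). A second Bambi probe was well above background on 0 of 9 arrays.

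Several members were highest in the same livers of a group. Tgfb1, Tgfb3, Inhbb and Fst were all highest in chow 1 among the chow livers and all highest in HFD 3 among the HFD livers. Chow 2 was the lowest chow liver for those genes and for Bambi. In the HFD+APS group, HFD+APS 1 was the highest liver for the same genes and for Inhbc. Inhba was also highest of its group in HFD 3 and HFD+APS 1, but lowest of its group in chow 1. The summed levels of 5 of the 9 marker lists (stellate cell and myofibroblast, neutrophil, platelet, B cell and T cell) were likewise highest in chow 1, HFD 3 and HFD+APS 1. The stellate sums there were 129.8, 153.6 and 137, and the neutrophil sums 6.33, 49.6 and 8.73. Most of the stellate sum was Dcn, and not every stellate marker followed this order. Reln (2.10) and Lrat (-1.21) were lowest of the HFD+APS livers in HFD+APS 1. The part of the cell types in these differences was not tested.

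Of 81 other genes of the pathway listed by role, 69 were measured. In HFD against chow 3 of 69 were called lower and 0 higher, with a median log2 change of 0.034, beside 6.37% lower and 4.55% higher over all features; the shares in the list were no larger. Fstl3, a follistatin-like protein that also binds activin, read -1.19, -1.14 and -1.25 in chow, -2.0, -2.17 and -2.38 in HFD and -1.76, -2.13 and -2.27 in HFD+APS. All chow livers were above all high-fat livers, as for Inhba. Fstl3 fell by 0.99 ± 0.15 in HFD against chow (adjusted p = 0.0126, limma) and by 0.86 ± 0.15 in HFD+APS against chow (adjusted p = 0.0324, limma). The first call was lost without chow 2 (adjusted p = 0.0511), and with the normexp background correction the change was -0.56 (adjusted p = 0.0165). The second was lost in 9 of 21 alternatives, with an adjusted p up to 0.12, among them without chow 1 (0.0671), chow 2 (0.12), chow 3 (0.0955), HFD 2 (0.0581), HFD+APS 2 (0.107) and HFD+APS 3 (0.107).

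Ski, a nuclear co-repressor of SMADs, read 2.59, 2.62 and 2.34 in chow and 1.80, 2.02 and 2.17 in HFD, with no overlap. It fell by 0.52 ± 0.13 in HFD against chow (adjusted p = 0.0461, limma), and its other probes gave -0.33 and -0.44. The call was lost in 14 of 21 alternatives (adjusted p from 0.0326 to 0.139 over all), and among arrays left out singly it held only without HFD+APS 1 (0.0475). Amh, the anti-Müllerian hormone, had a fitted difference of -1.18 in HFD against chow (adjusted p = 0.038, limma). It was not well above background in any HFD liver. With HFD values raised to at least the lowest signal well above background on their array, Amh was 1.24-fold lower in HFD. That fold is no strict bound, because a probe can read above that signal and still not be well above background. With the normexp background correction the fitted difference was -0.31. Amh lost its call in 10 of 20 alternatives (adjusted p up to 0.153), among them without chow 1 (0.086), chow 2 (0.117), chow 3 (0.0705), HFD 1 (0.0618), HFD 2 (0.0845), HFD 3 (0.101) or HFD+APS 3 (0.0617). Ltbp3, which stores latent TGF beta in the matrix, had a difference of 1.07 ± 0.29 (adjusted p = 0.0516), and its other probe gave -0.43. Ltbp3 passed the test in 8 of 21 alternatives, among them without chow 1 (0.0325) and without HFD+APS 1 (0.0478).

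In HFD+APS against HFD 1 of 69 pathway genes was called higher and 1 lower, with a median of -0.0022, beside 0.476% higher and 1.03% lower over all features. Bmp7, a bone morphogenetic protein, read 0.09, 0.07 and -0.15 in HFD and -0.67, -0.77 and -0.68 in HFD+APS, and fell by 0.71 ± 0.12 (adjusted p = 0.035, limma; other probe -0.64). Bmp7 kept its call in 9 of 22 alternatives, and among arrays left out singly in those without chow 2 (adjusted p = 0.038) and without HFD+APS 1 (0.0426). With slide as a fixed block, which sets HFD+APS 1 alone against the 3 HFD arrays of its slide, the Bmp7 difference was -0.67. Acvr2b, a type II activin receptor, had a fitted difference of 0.82 in HFD+APS against HFD (adjusted p = 0.0499, limma). It was not well above background on any of the 3 HFD arrays. With HFD values raised in the same way as for Amh, Acvr2b was 1.59-fold higher in HFD+APS, again no strict bound. Acvr2b kept its call in 3 of 21 alternatives, of which 1 left out an array, HFD+APS 1 (0.0144). Its fitted difference was 0.20 with the normexp correction and 0.49 with the fixed slide block. Gdf15, a distant family member induced by cell stress, read 2.05, 2.24 and 2.82 in HFD and 1.04, 1.25 and 0.47 in HFD+APS, a difference of -1.45 ± 0.32 that did not pass the test (adjusted p = 0.0677, limma). Gdf15 passed the test in 2 of 22 alternatives, the normexp correction (adjusted p = 0.0458, limma) and array weights (0.0111). Atoh8, a target of BMP signalling, differed by 0.78 (adjusted p = 0.114).

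In HFD+APS against chow Fstl3 was the 1 pathway gene called, lower, and 0 were higher, with a median of 0.067, beside 2.5% lower and 0.958% higher over all features. The other genes with the smallest p were Smad6, the inhibitory SMAD of BMP signalling (0.78, adjusted p = 0.0727), Tgfbi, a matrix protein induced by TGF beta (0.70, adjusted p = 0.0992), and Gdf2, which encodes BMP9 and is made in the liver (0.40, adjusted p = 0.102). None of the 7 SMADs and none of the 14 target genes was called in any comparison, with 1 and 3 of them at an unadjusted p under 0.05 in HFD against chow, 0 and 3 in HFD+APS against HFD, and 1 and 1 in HFD+APS against chow. At that threshold 31.4%, 17.9% and 25.1% of all features passed in the 3 comparisons. The medians of the 14 target genes were 0.15, -0.16 and 0.073 in the 3 comparisons. That list mixes targets of TGF beta with targets of BMP signalling such as Atoh8, and it holds no collagen. Col1a1 (2.08) and Col3a1 (1.79), read above as stellate cell markers, were called higher in HFD against chow. Counts of called pathway genes moved with single arrays. In HFD against chow the 3 became 6 without chow 1 or HFD+APS 1, 0 without chow 2, and 1 without chow 3, HFD 1, HFD 2, HFD 3 or HFD+APS 3. Between HFD+APS and HFD the 2 became 1 without chow 1 or chow 2 and 0 without chow 3, any 1 of the HFD arrays, HFD+APS 2 or HFD+APS 3. Between HFD+APS and chow the 1 became 2 without HFD 3 or HFD+APS 1 and 0 without chow 2, chow 3, HFD 2, HFD+APS 2 or HFD+APS 3. An equal count can hide a change of genes. Without chow 1, the 1 gene called between HFD+APS and HFD was neither Bmp7 (adjusted p = 0.0525, limma) nor Acvr2b (0.075). Between HFD+APS and chow there was also 1 call without chow 1, and it was not Fstl3 (0.0671).

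**Figure D4:**
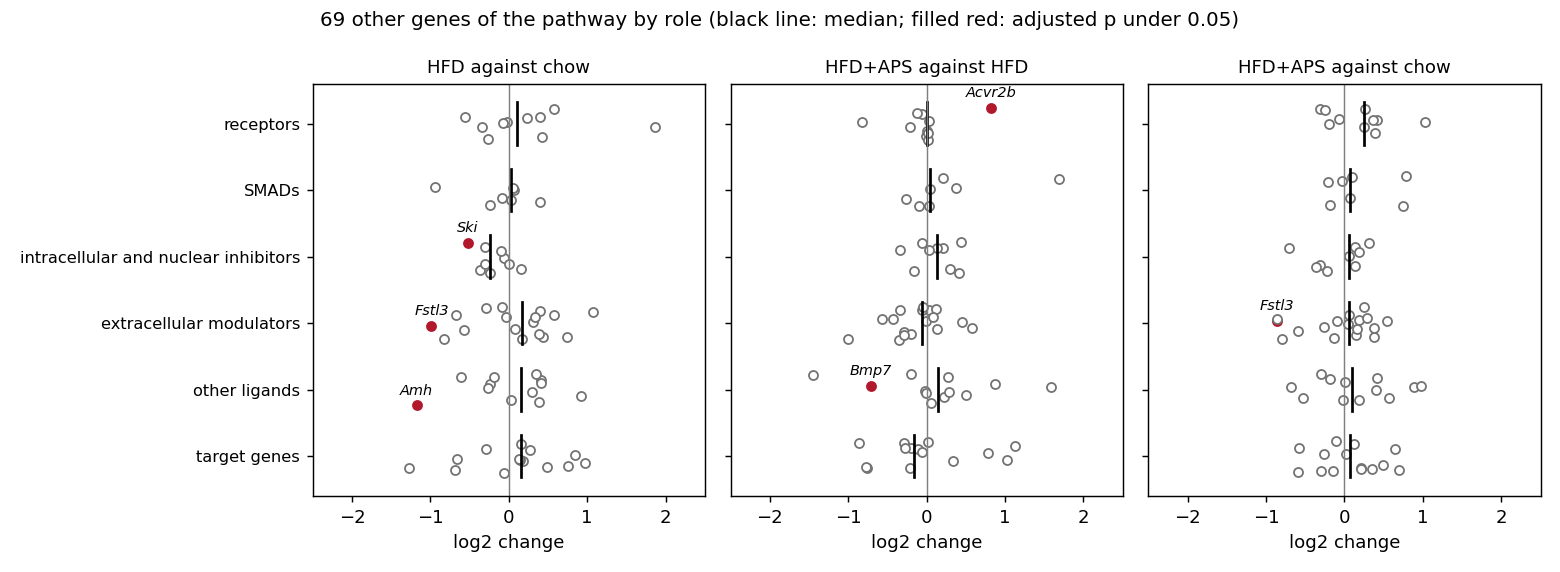
Log2 change of the 69 other pathway genes measured, by role, in the 3 comparisons, with 1 point per gene and a black line at the median of the role. Filled red points passed the test: Ski, Fstl3 and Amh (lower in HFD than in chow), Acvr2b (higher) and Bmp7 (lower) in HFD+APS against HFD, and Fstl3 (lower in HFD+APS than in chow).

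The features whose pattern over the 9 arrays was most like that of Inhba were Gga3 (Pearson r = 0.984), Olfr462 (0.970) and Smc5 (0.961), chosen as the 3 highest of all features. Gga3 averaged 0.84 in chow, 0.29 in HFD and 0.44 in HFD+APS. These correlations describe 9 arrays that share their groups and slides, and they carry no test.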

How the data were processed

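Liver RNA of 9 mice was hybridised to 9 Agilent 1-colour arrays. Per the file headers, signals were extracted with Feature Extraction 10.7.1.1, whose processed signal is a background-subtracted intensity per spot with no scaling across arrays. The authors' table of log2 values was also deposited; its normalization step is not given in the sources used here, and it served as an alternative.

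Of 45018 spots per array, 1639 were controls. After removal of spots marked as outliers, log2 signals of repeated spots were averaged, giving 41174 probes, and scaled by subtracting the 75th percentile of the array (R 4.3.3, limma 3.58.1). Probes well above background on at least 3 arrays were kept (26473), and each gene was read by its brightest probe on average (17633 features, 5 missing values). Gene names came from RefSeq (27668 probes matched by accession, 5589 by symbol, 471 by synonym and 7446 by none). The 3 groups were compared in 1 limma fit over all arrays (6 residual and 2.21 prior degrees of freedom), with Benjamini-Hochberg adjustment over all features and a threshold of 0.05. The fit was tested on simulated data. Precision is limited by 3 arrays per group.

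Members and lists were chosen with earlier results of these data known. Named were every member, each called pathway gene and, up to 4 per comparison, those with the smallest p, the 3 features most like a called member, and the 2 brightest markers of each list. Which exon a probe lies in was not determined, and no protein sequence was used. Same-numbered livers did not deviate together (correlations of deviations -0.175 to 0.164 over 9 pairs), so the numbers were not used as pairs.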

Additional observations from a re-analysis of the deposited data

How the results depend on the processing

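Precision is set by 3 selected livers per group: the 95% interval of Fst, the widest, ran from -1.87 to 0.83 in HFD against chow. Inhba in HFD against chow kept its call in all 21 alternatives, and no member was called in HFD+APS against HFD in any of 22. The number of members called was 2 with array weights in HFD against chow (Inhbe added) and in HFD+APS against chow (Inhbc added). It was 0 in HFD+APS against chow with median scaling, without the filter on dim probes, with only the groups compared, with slide as a random block and with the replicate block, and 0 to 1 with arrays left out singly. Pairing by replicate number (the replicate block) gave 1 called pathway gene in HFD+APS against HFD, where both reported genes lost their call (Bmp7 adjusted p = 0.0823, Acvr2b 0.0954), and 4 in HFD against chow, where Ski lost its call (0.0753) and Ltbp3 gained one (0.021). Beyond Inhba in HFD+APS against chow it changed no call of a member.

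Pathway genes called in HFD against chow were 13 with array weights, 5 with quantile normalization or the authors' deposited table, 7 with detection on all 9 arrays required, 1 without the filter or with slide as a random block, and 0 to 6 with arrays left out. For HFD+APS against HFD they were 6 with array weights, 1 with quantile normalization, the deposited table, every probe as a feature, all-array detection or the replicate block, 0 with median scaling, without the filter, with only the groups compared or with the random slide block, and 0 to 2 with arrays left out. For HFD+APS against chow they were 10 with array weights, 0 without the filter or with the random slide block, and 0 to 2 with arrays left out.

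Differences that did not pass the test changed sign as follows; the cause was not tested. Fst in HFD+APS against chow became 0.047 (quantile), 0.10 (median scaling), 0.044 (deposited table) and 0.095 (array weights), and ranged from -0.39 to 0.64 with arrays left out. Bambi in HFD against chow became 0.017 with median scaling and 0.021 with array weights (-0.28 to 0.21 with arrays left out). Tgfb3 in HFD+APS against HFD became 0.022 with median scaling, 0.0041 with the random and 0.38 with the fixed slide block (-0.45 to 0.45). The fixed slide block compares 1 array, HFD+APS 1, with the 3 HFD arrays of its slide. Inhbb in HFD against chow became -0.14 as the mean of its probes (-0.066 to 0.50). Tgfb1 in HFD against chow became -0.040 with array weights and -0.0078 with the random slide block (-0.19 to 0.23), and ranged from -0.032 to 0.25 in HFD+APS against HFD and from -0.076 to 0.35 in HFD+APS against chow. Inhbe in HFD+APS against chow became 0.068 with array weights. Smad7 in HFD+APS against HFD became -0.13 with the fixed slide block (-0.032 to 0.37) and ranged from -0.16 to 0.25 in HFD against chow. Fst in HFD against chow ranged from -0.88 to 0.15.

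Over all features, 1926 were called in HFD against chow, 265 in HFD+APS against HFD, 610 in HFD+APS against chow. In that order these became 3832, 2050 and 4935 with array weights, 798, 79 and 221 without the filter, 684, 164 and 156 with the random slide block, and 365 to 2708, 51 to 578 and 21 to 1606 with arrays left out. The replicate block gave 82 and 294 in the last 2 comparisons, and only the groups compared gave 25 in HFD+APS against HFD. Median scaling moved the share of higher calls from 31.7 to 46.9% in HFD+APS against HFD and from 27.7 to 42% in HFD+APS against chow, where it shifted the median of all features to 0.106.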
